A study of Mus musculus with 2 samples.

Results

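MHC class II genes were measured outside dendritic cells in 2 single-cell libraries of EMT6 tumors. The set is 7 listed symbols, H2-Aa, H2-Ab1, H2-Eb1, H2-DMa, H2-DMb1, Cd74 and Ciita, out of 55450 genes in the feature list, and all 7 were found. They were followed in 7 classes of cells, which held 17241 of the 23657 cell barcodes in both libraries, 12868 in Olaparib + LLY-283 and 4373 in Combo. EMT6 is a mouse mammary carcinoma line, and 200000 of its cells were put under the skin of immunocompetent BALB/c mice. Both groups had palpable tumors and received Olaparib, a PARP inhibitor, at 50 mg/kg daily and LLY-283, a PRMT5 inhibitor, at 50 mg/kg on 3 days with 4 days off. In addition, the Combo group was given 200 µg of anti-PD-1 antibody every 3 days. Each group is 1 library of tumors pooled from 3 mice, so the treatment, the pool and the library cannot be told apart and no test between groups can be made. The intervals below are 95% and cover counting error only.

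MHC class II molecules carry peptides from internalised proteins to CD4+ T cells. H2-Aa and H2-Ab1 encode the alpha and beta chains of I-A, and H2-Eb1 encodes the beta chain of I-E. Cd74 encodes the invariant chain, which fills the groove of new class II molecules and guides them to endosomes. H2-DMa and H2-DMb1 encode chains of H2-DM, which exchanges a remnant of the invariant chain for peptide. Ciita encodes the transactivator that the class II promoters require, and its own gene responds to interferon-gamma in many cells. Dendritic cells, B cells and some macrophages are known for high class II levels, while most fibroblasts and carcinoma cells carry class II only after interferon-gamma.

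The genes lie, by GENCODE M21 on GRCm38, on chromosome 17 for H2-Aa (chr17:34282744-34287823, minus strand), H2-Ab1 (chr17:34257689-34269419, plus), H2-Eb1 (chr17:34305867-34316674, plus), H2-DMa (chr17:34119541-34139101, plus) and H2-DMb1 (chr17:34153072-34160230, plus). Ciita lies on chromosome 16 (chr16:10480059-10528418, plus). All 7 members, Cd74 included, are protein coding. The annotated span of H2-DMa overlaps Brd2 on the other strand, that of Ciita overlaps Dexi, and that of H2-Eb1 overlaps an antisense gene, Gm20513. H2-DMb1 has a close copy, H2-DMb2, so its counts depend on how reads were split between them.

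Class II promoters share an X box and a Y box, bound by RFX and NF-Y, onto which CIITA assembles. A pair of these promoters is shown because they differ in the boxes that a search by letters finds. The stretches are the 110 bases before the RefSeq start (GRCm38.p6), 5′ to 3′ on the strand of the gene, at chr17:34287824-34287933 for H2-Aa and chr17:34305757-34305866 for H2-Eb1. Capitals mark matches to the Y box letters ATTGG on either strand and to an X box pattern, which is CTAG, 2 free bases, AC, 3 free bases and TG.
H2-Aa: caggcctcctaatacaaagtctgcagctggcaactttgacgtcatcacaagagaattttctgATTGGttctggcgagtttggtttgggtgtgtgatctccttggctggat
H2-Eb1: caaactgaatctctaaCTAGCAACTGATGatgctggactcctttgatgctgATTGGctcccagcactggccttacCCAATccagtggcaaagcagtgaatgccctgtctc
H2-Eb1 held the X box pattern 94 to 82 bases and a Y box 59 to 55 bases before the start, with another Y box on the opposite strand at 35 to 31. H2-Aa held a Y box at 48 to 44 bases and no match to the X box pattern. The pattern is a strict set of letters, so a stretch without a match may still hold an X box. In H2-DMb1 the X box read ctagtaactgatg, 97 to 85 bases before the start, with a Y box at 61 to 57. H2-DMa has more than 1 start among these promoters. The window at chr17:34125268-34125567 had no match in the 110 bases before the start and a Y box at 198 to 194 bases. The window at chr17:34122582-34122881 had no match at all. Among 32851 promoters of 300 bases, 37.4% held ATTGG, 0.566% the X box pattern and 0.228% both. A match of letters is a description of the sequence only.

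The Olaparib + LLY-283 library held 16115 barcodes with a median of 7376 UMIs, and the Combo library 7542 barcodes with a median of 3614. After filters, 13960 and 5660 cells were clustered, with medians of 6916 and 13556 UMIs, and 39 barcodes occurred in both libraries. In Combo 1586 barcodes were over the limit on mitochondrial UMIs, compared with 86. The UMI is a molecule tag counted near the 3′ end of a transcript, and levels are given as CPM, the UMIs of a gene relative to all UMIs of the same cells, with no scaling by length. The class II level is the sum of H2-Aa, H2-Ab1 and H2-Eb1. Cells were named from marker genes after clustering without MHC and interferon genes. In both libraries all 13 macrophage, 8 monocyte, 11 neutrophil and 12 endothelial markers were over 2-fold higher in their class than in all other cells, as were 10 of the 11 osteoclast markers in Olaparib + LLY-283, where Calcr was at 0, and all 11 in Combo. For the fibroblasts, called CAF-like, it was 10 of 11. The same lists were used to name these classes, so these counts are not independent of the naming. The tumor-like class was weakly marked: 0 and 3 of its 6 markers passed this fold, and its keratin gene Krt8 was at 804 and 797 CPM, compared with 186 and 94.3 CPM in macrophage-like cells. DC-like cells, 47 in each library, served as the reference, and Flt3, Xcr1, Clec9a and Itgae were at 0 in the Olaparib + LLY-283 ones.

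DC-like cells had the highest class II level, followed among the 7 classes by monocyte-like and macrophage-like cells. T or NK-like cells lay between macrophage-like and neutrophil-like cells in Olaparib + LLY-283 and near macrophage-like cells in Combo. In Olaparib + LLY-283 DC-like cells were at 15386 CPM (95% interval 14596 to 16208), monocyte-like at 2547 (2321 to 2788), macrophage-like at 859 (822 to 898), neutrophil-like at 190 (152 to 235), osteoclast-like at 152 (107 to 208), CAF-like at 48.4 (36.4 to 63.0), tumor-like at 10.7 (10.1 to 11.3) and endothelial-like at 9.57 (1.16 to 34.6). In Combo DC-like cells were at 16981 (16608 to 17361), monocyte-like at 1044 (991 to 1099), macrophage-like at 473 (457 to 490), osteoclast-like at 105 (75.2 to 142), endothelial-like at 82.6 (41.3 to 148), neutrophil-like at 66.3 (55.2 to 79.1), CAF-like at 36.2 (26.9 to 47.5) and tumor-like at 20.5 (19.7 to 21.2). The intervals of neutrophil-like and osteoclast-like cells overlapped in both libraries, as did those of tumor-like and endothelial-like cells in Olaparib + LLY-283. In Combo the endothelial-like interval overlapped those of osteoclast-like, neutrophil-like and CAF-like cells. The endothelial-like value rests on 2 UMIs in 39 cells and 11 UMIs in 14 cells.

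**Figure D1:**
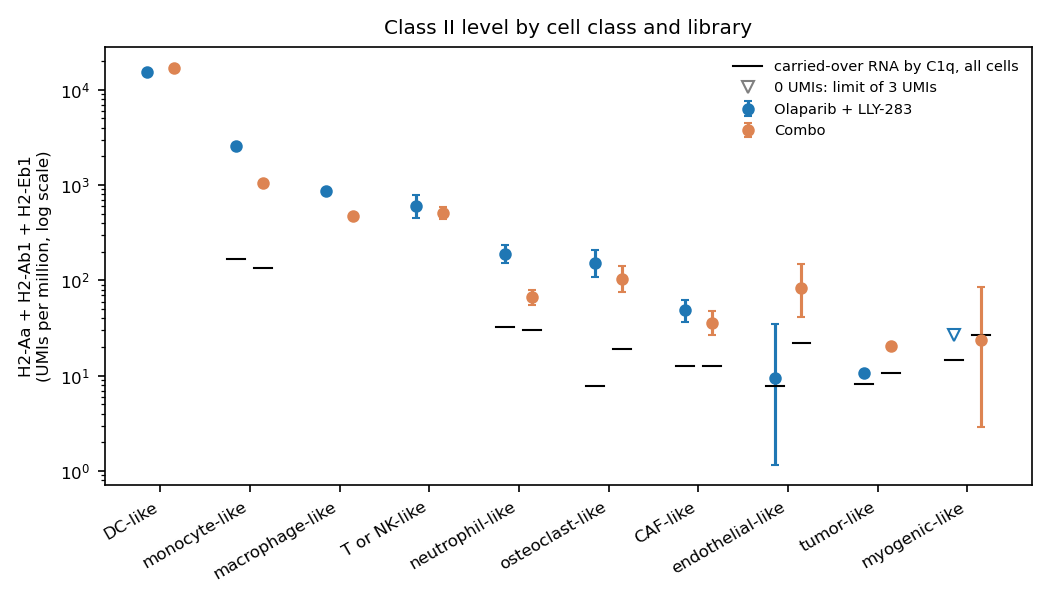
Class II level (H2-Aa + H2-Ab1 + H2-Eb1, CPM, log scale) in 10 cell classes of both libraries. Points are levels with 95% Poisson intervals, open triangles are the limit of 3 UMIs for a class with 0, and short black lines are the level that C1q would carry over from all cells. DC-like cells are highest in both libraries, and tumor-like cells lie at 10.7 and 20.5, or 1.32 and 1.90 times the black lines.

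Free RNA was measured in cells that should lack class II. T or NK-like cells, which in the mouse are not known for class II, held 602 CPM (448 to 791) in Olaparib + LLY-283 and 511 (442 to 588) in Combo. These UMIs were not spread evenly. In Olaparib + LLY-283, 2 of the 81 cells held 31 and 13 of the 51 UMIs, and in Combo 8 of 60 cells held 89.2% of 195 UMIs. In Combo 2 cells with a UMI of a B cell marker held 65 UMIs, and the level without them was 346 CPM. The 50 and 42 cells with a T cell receptor or Cd3 UMI were at 57.9 and 278 CPM, and the 18 cells in each library with a UMI of Ncr1, an NK cell receptor gene, were at 1567 and 569 CPM, with 36 of the 51 and 119 of the 195 UMIs. Myogenic-like cells gave a lower background, 0 UMIs in 39 cells, which allows up to 26.9 CPM by the limit of 3 UMIs, and 2 UMIs in 50 cells, or 23.7 CPM (2.87 to 85.6).

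Shares of cells with a class II UMI were compared after each cell was thinned to 1000 UMIs, with shallower cells left out. Macrophage-like cells came to 20.2% and 15.6%, monocyte-like to 45.1% and 26.5%, and T or NK-like cells to 18.7% and 18.1%. DC-like cells were at 90.3% and 92.5%. Neutrophil-like (5.52% and 5.45%), osteoclast-like (8.71% and 6.88%), endothelial-like (1.83% and 5.78%), CAF-like (3.80% and 3.59%) and tumor-like cells (1.06% and 1.85%) all lay below the T or NK-like share, as did the macrophage-like share in Combo. Since a few cells hold most class II UMIs of the T or NK-like class, its share is not a measure of free RNA alone. Myogenic-like cells, with fewer class II UMIs, were at 0% and 2.11%, on 24 and 26 cells. The thinned values rest on 801 and 533 macrophage-like, 69 and 151 monocyte-like, 43 and 829 neutrophil-like, 10794 and 2624 tumor-like and 32 and 58 T or NK-like cells. Unthinned, the share was 27.2% and 46.7% in macrophage-like cells (median 1880 and 11454 UMIs), 8.20% and 45.8% in tumor-like cells (8580 and 48069), and 11.1% and 35.0% in T or NK-like cells (891 and 4136). The unthinned order between libraries in macrophages is the opposite of the order of the CPM, and no difference is read from it.

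C1qa, C1qb and C1qc, which encode complement C1q and mark macrophages, gave another background. Over all clustered cells there were 0.323 class II UMIs per C1q UMI in both libraries. These cells include the class being compared: tumor-like cells gave 1192 of the 5420 class II UMIs in Olaparib + LLY-283 and 2730 of the 15817 in Combo. The carried-over value is thus not independent of the measured level. If the C1q of a class were all carried over in this ratio, tumor-like cells would hold 8.15 and 10.8 class II CPM, compared with 10.7 and 20.5 measured, or 1.32 and 1.90 times as much. The measured level was 15.2 and 7.80 times the carried-over value in monocyte-like cells, 5.91 and 2.22 in neutrophil-like, 19.6 and 5.52 in osteoclast-like, 3.87 and 2.87 in CAF-like and 1.24 and 3.79 in endothelial-like cells. With the ratio of macrophage-like cells in place of that of all cells, tumor-like cells would hold 3.64 and 2.44 CPM, and the measured level was 2.95 and 8.40 times as much. The distance of tumor-like cells from the background thus depends on the source taken.

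Macrophage-like cells, 993 in Olaparib + LLY-283 and 550 in Combo, had lower levels of the classical chains in Combo. This holds for the class as a whole: the ratio of the class II sum was 0.551 (0.520 to 0.583), and 1.06 without the cluster led by Ccr2. Different clusters held most of the class in each library, with 324 and 93 cells in the cluster led by Mmp12, 167 and 246 in that led by Gatm, 306 and 67 in that led by Ccr2, 162 and 113 in that led by Lyve1 and 34 and 31 in that led by Ccl12. H2-Aa, the I-A alpha chain, held 773 UMIs or 341 CPM in Olaparib + LLY-283 and 1068 UMIs or 160 CPM in Combo, a ratio of 0.469 (0.427 to 0.515). H2-Ab1 was at 298 and 186 CPM (0.624, 0.568 to 0.686) and H2-Eb1 at 220 and 127 CPM (0.578, 0.517 to 0.646). Of the 6 members with at least 50 UMIs, 0 were at least 1.5-fold higher in Combo and 3 at least 1.5-fold lower, where 6.68% of 9308 genes were that much higher and 4.86% lower. The 3 were the classical chains.

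Among the accessory genes, H2-DMa had a ratio nearer to 1 than the classical chains in macrophage-like cells as a whole. Cd74 and H2-DMb1 were also nearer to 1, but their intervals overlap that of H2-Ab1. The ratio of Ciita, on few counts, was farther from 1. H2-DMa was at 209 CPM in Olaparib + LLY-283 and 220 CPM in Combo, a ratio of 1.05 (0.949 to 1.17). Its ratio was 0.537 (0.391 to 0.744) in the cluster led by Lyve1 and 2.255 (1.283 to 4.325) in that led by Ccl12. In the clusters led by Mmp12, Gatm and Ccr2 the interval of the H2-DMa ratio included 1. Cd74 was at 1262 and 863 CPM (0.684, 0.654 to 0.715) and H2-DMb1 at 38.4 and 27.7 CPM (0.722, 0.556 to 0.942). Ciita was barely counted, with 3 UMIs in Olaparib + LLY-283 and 35 in Combo, or 1.32 and 5.24 CPM (3.96, 1.25 to 20.1). For the class as a whole, the gene for the transactivator was thus higher, on few counts, in the library with the lower classical chains. In Combo 24 of the 35 Ciita UMIs lay in the cluster led by Gatm, which had 0 in Olaparib + LLY-283. There the class II level was higher in Combo, at 294 and 651 CPM. The cluster led by Ccr2 had 0 Ciita UMIs in both libraries. Over all macrophage-like cells there were 0.243 H2-DMa UMIs per class II UMI in Olaparib + LLY-283 and 0.465 in Combo.

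Few macrophage-like cells carried the class II UMIs. Cells with 5 or more of them numbered 83 of 993 in Olaparib + LLY-283 and 70 of 550 in Combo, and they held 84.4% and 89.8% of the class II UMIs. This cut is a raw count, here and in other classes, and the libraries differ in depth (median 1880 and 11454 UMIs). The numbers and shares of such cells are thus not compared between libraries. In Olaparib + LLY-283, 72.8% of macrophage-like cells had no class II UMI. The cells with 5 or more held 71.3% and 75.7% of the H2-DMb1 UMIs, 65.1% and 69.5% of the Cd74 UMIs, but 19.0% and 23.2% of the H2-DMa UMIs, beside 9.81% and 13.8% of all UMIs. H2-DMa was thus spread over the macrophage-like cells, at 188 and 196 CPM in the cells with under 5 class II UMIs, where H2-DMb1 was at 12.2 and 7.82 CPM. C1qa was at 2841 against 2737 CPM in Olaparib + LLY-283 and 3318 against 2970 CPM in Combo in the cells with 5 or more against the others. Other macrophage genes were lower in them: Lyz2 at 9235 against 13425 and 9812 against 14749 CPM, and Mrc1 at 355 against 732 and 555 against 998 CPM. Krt8 was at 153 against 190 and 99.5 against 93.5 CPM. Itgax, the CD11c gene, was higher in the cells with 5 or more (40.5 against 6.36 CPM and 46.5 against 11.5). Cd83, like Itgax on the dendritic cell marker list, was at 80.9 against 70.4 and 64.9 against 66.6 CPM. Both intervals of its ratio include 1 (0.662 to 1.88 and 0.730 to 1.28). Flt3, which was also at 0 in DC-like cells of Olaparib + LLY-283, had 0 against 0 UMIs there and 2 against 1 in Combo. Zbtb46 had 2 against 1 and 3 against 9 UMIs, and Mgl2 3 against 3 and 3 against 17. For Mgl2 the interval of the ratio was above 1 in Olaparib + LLY-283 (9.19, 1.23 to 68.6) and included 1 in Combo (1.10, 0.206 to 3.80). These counts are too few to name the cells. Ciita had 0 UMIs in the 83 cells of Olaparib + LLY-283 and 29 of its 35 UMIs in the 70 cells of Combo.

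**Figure D2:**
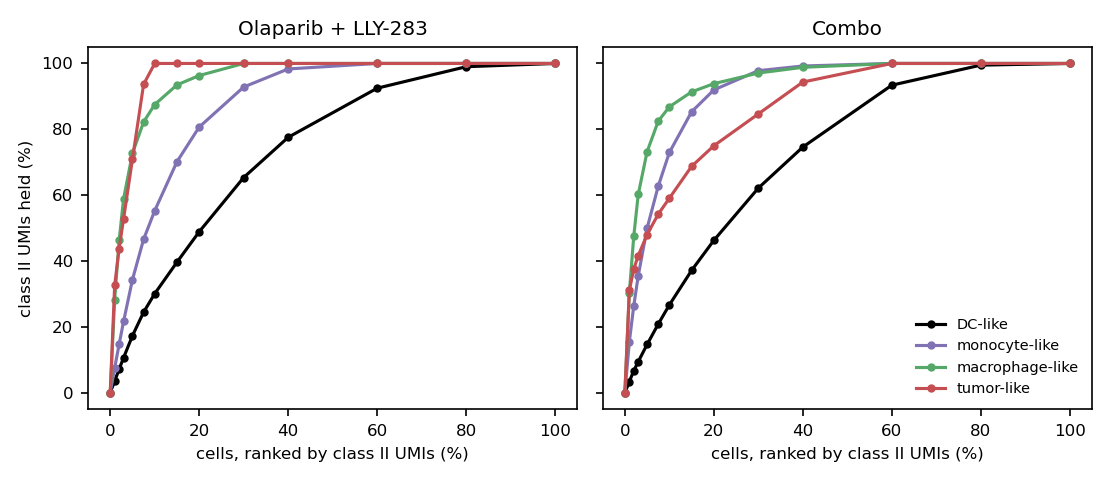
Share of class II UMIs (%) held by cells ranked from most to fewest class II UMIs (%), in DC-like, monocyte-like, macrophage-like and tumor-like cells of each library. In macrophage-like cells 5% of the cells held 72.7% and 73.2% of the UMIs, and the curve of DC-like cells runs closest to an even spread.

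Of the 5 macrophage-like clusters, 3 were lower in Combo with an interval below 1, and 1 was higher with an interval above 1. The cluster led by Ccr2 and Slamf9 was at 2335 CPM in Olaparib + LLY-283 and 467 in Combo (0.200, 0.165 to 0.240). The cluster led by Mmp12, Fabp5 and Arg1 was at 639 and 426 CPM (0.667, 0.577 to 0.771), and the one led by Lyve1 and Cd163, genes of tissue-resident macrophages, at 341 and 134 CPM (0.391, 0.319 to 0.480). The cluster led by Gatm, Ms4a7 and C1qb went the other way, at 294 and 651 CPM (2.22, 1.88 to 2.63). A smaller cluster led by Ccl12 and Gatm was at 470 and 599 CPM, with an interval of the ratio that includes 1 (0.960 to 1.72). Without the Ccr2 cluster, whose cells have the fewest UMIs, macrophage-like cells were at 447 CPM in Olaparib + LLY-283 and the ratio was 1.06. Median UMIs in the Ccr2 cluster were 1348 and 1706, compared with 1672 to 2847 and 6786 to 23174 in the other clusters. The part of cell quality in this difference was not tested.

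Monocyte-like cells, 73 and 152, were the highest class outside DC-like cells. H2-Aa was at 1137 CPM in Olaparib + LLY-283 and 439 CPM in Combo (0.386, 0.330 to 0.454), H2-Ab1 at 756 and 349 CPM (0.462, 0.382 to 0.562) and H2-Eb1 at 653 and 255 CPM (0.390, 0.317 to 0.484). Cd74 was at 3820 and 1995 CPM (0.522, 0.480 to 0.568) and H2-DMb1 at 81.6 and 51.9 CPM (0.635, 0.361 to 1.19). H2-DMa again differed little, 278 and 287 CPM (1.03, 0.770 to 1.41). Of 6 members counted, 0 were at least 1.5-fold higher in Combo and 5 lower, against 13.7% and 8.19% of 4308 genes. The 5 include H2-DMb1, on 15 and 72 UMIs, with an interval of the ratio that includes 1. Its close copy H2-DMb2 went the other way in these cells, at 5.44 and 31.7 CPM on 1 and 44 UMIs (5.82, 0.992 to 235). The part of the split of reads between these copies in the H2-DMb1 call was not tested. Ciita had 3 and 12 UMIs. Cells with 5 or more class II UMIs were 25 of 73 and 40 of 152, and they held 96.2% and 96.6% of the class II UMIs. All 15 H2-DMb1 UMIs of Olaparib + LLY-283 were in the 25 cells. In them C1qa was at 131 CPM against 286 CPM in the other cells in Olaparib + LLY-283 and at 204 against 189 CPM in Combo, both with an interval of the ratio that includes 1, and Flt3 was at 0 in both libraries.

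**Figure D3:**
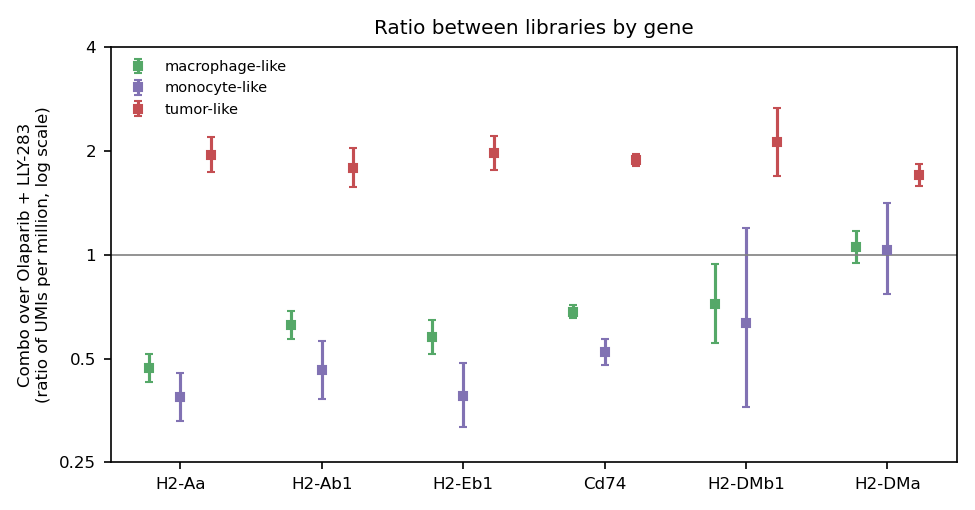
Ratio of Combo over Olaparib + LLY-283 (CPM, log scale) for 6 members in macrophage-like, monocyte-like and tumor-like cells, with 95% intervals from counts. Over whole classes, H2-DMa is the member nearest to 1 in macrophage-like (1.05) and monocyte-like cells (1.03), and all 6 are above 1 in tumor-like cells. In single macrophage-like clusters the H2-DMa ratio ran from 0.537 to 2.255.

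The boundary between these classes depends on the MHC genes themselves. When MHC and interferon genes were kept in the clustering, 52 of the 83 macrophage-like cells with 5 or more class II UMIs in Olaparib + LLY-283, and 26 of 70 in Combo, were placed with the monocyte-like cells. So were 42 and 37 of the 47 DC-like cells. Macrophage-like levels were then 272 and 196 CPM, with a ratio of 0.720. Genes of dendritic cells were looked at in the classes as they stand: of 16 listed, 10 and 14 had a UMI in macrophage-like cells and 7 and 8 in monocyte-like cells, where Flt3, Xcr1, Clec9a, Zbtb46, Cd209a and Siglech were at 0 in both libraries. Summed, the list was at 230 CPM in macrophage-like cells of both libraries and 376 and 348 CPM in monocyte-like cells, compared with 2210 and 2357 in DC-like cells. Other classes came near these values, with 325.5 and 375.7 CPM in endothelial-like, 195 and 201 in CAF-like and 191.5 and 202.5 in tumor-like cells. Neutrophil-like (93.0 and 103) and osteoclast-like cells (83.8 and 51.1) were lower. The sum thus does not set macrophage-like and monocyte-like cells apart.

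Neutrophil-like cells, 637 and 930, held 86 and 124 class II UMIs. H2-Aa was at 88.6 and 30.5 CPM (0.344, 0.226 to 0.529), H2-Ab1 at 62.0 and 10.2 (0.164, 0.0865 to 0.304) and Cd74 at 173 and 61.0 CPM (0.353, 0.262 to 0.477). H2-Eb1 was at 39.9 and 25.7 CPM, with an interval of the ratio from 0.368 to 1.18. Of 3 members counted all 3 were at least 1.5-fold lower in Combo and 0 higher, against 18.6% and 21.9% of 4538 genes. The class sat in different clusters in each library, with 614, 19 and 4 cells of Olaparib + LLY-283 and 124, 537 and 269 of Combo in its 3 clusters. In the first, led by Retnlg and Stfa2, the class II level was 200.4 and 74.7 CPM. When each cell was classed by its own markers, the ratio was 1.13. A single cell held 38 of the 86 UMIs of Olaparib + LLY-283, and without the highest cell of each library the ratio of the class II sum changed from 0.348 to 0.577. H2-DMa had 2 and 12 UMIs, H2-DMb1 4 and 3, and Ciita 4 and 1. Of the Olaparib + LLY-283 cells, 594 had under 1000 UMIs. Unnamed cells with neutrophil genes, 21 in Olaparib + LLY-283 and 482 in Combo, are not part of this class. Their class II level was 91.65 CPM, on 2 UMIs, and 168 CPM (142 to 198), above the Combo cells of the class. The ratio with them included was not taken.

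Osteoclast-like cells, 70 and 22, had more Cd74 than classical chains. Cd74 was at 627 CPM in Olaparib + LLY-283 and 330 CPM in Combo (0.526, 0.413 to 0.668). H2-Aa was at 79.8 and 43.4 CPM on 20 and 17 UMIs, H2-Ab1 at 47.9 and 51.1 CPM, H2-DMa at 35.9 and 48.5 CPM and H2-DMb1 at 27.9 and 28.1 CPM, all with intervals of the ratio that include 1. Cd74 was the one member counted, at least 1.5-fold lower in Combo, where 11.5% of 1908 genes were that much higher and 11.3% lower. There were 4.13 and 3.15 Cd74 UMIs per class II UMI, compared with 2.99 and 2.95 in tumor-like, 1.47 and 1.82 in macrophage-like and 1.06 and 1.06 in DC-like cells. Of the 13 macrophage markers, 12 had a UMI in osteoclast-like cells of each library. The list summed to 2570 and 3272 CPM there, compared with 17204 and 16649 CPM in macrophage-like cells and 92.5 and 110 CPM in tumor-like cells. C1qa was at 3.99 and 15.3 CPM in osteoclast-like cells, and Adgre1, a macrophage surface gene, was the marker at 0 in both libraries. The highest cell held 12 of 38 and 24 of 41 class II UMIs. Ciita had 0 UMIs in both, which by the limit of 3 UMIs allows up to 11.97 and 7.66 CPM.

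CAF-like cells, 240 and 63, carried almost a single chain. H2-Ab1 made up 52 of 55 class II UMIs in Olaparib + LLY-283, or 94.5% (84.9% to 98.9%, Clopper-Pearson), and 40 of 51 in Combo, or 78.4% (64.7% to 88.7%). H2-Aa, its partner in I-A, had 0 UMIs (up to 2.64 CPM) and 6 UMIs (4.25 CPM), while H2-Ab1 was at 45.7 and 28.3 CPM (0.620, 0.400 to 0.955). In DC-like cells the H2-Ab1 share was 33.6% and 29.4%, in macrophage-like cells 34.7% and 39.3%, and among the tumor-like class 29.2% and 27.3%. The CAF-like intervals of the H2-Ab1 share do not overlap those of DC-like or macrophage-like cells in either library. In Combo the CAF-like interval does overlap those of osteoclast-like (32.9% to 64.9%) and endothelial-like cells (16.75% to 76.6%). In Olaparib + LLY-283 the 2 class II UMIs of endothelial-like cells were both H2-Ab1.

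**Figure D4:**
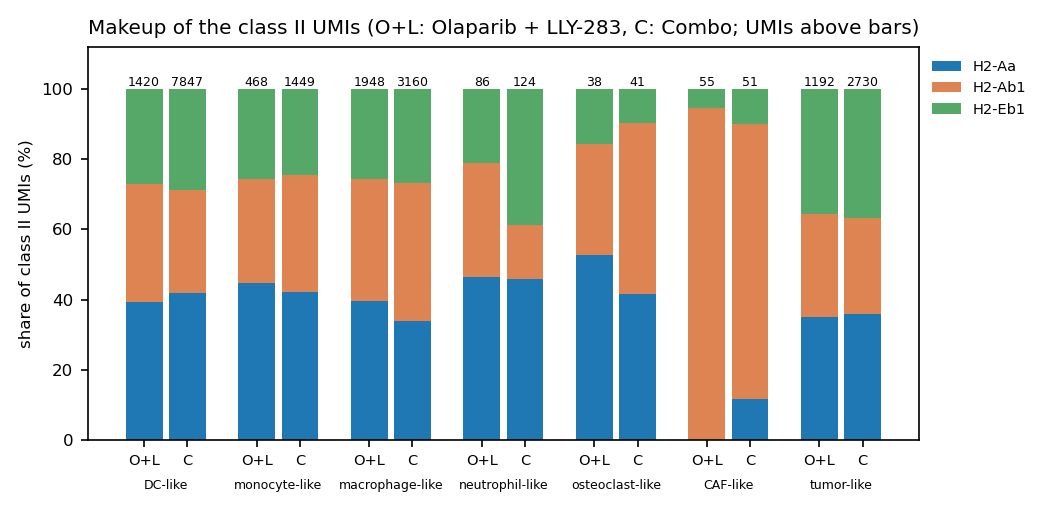
Share (%) of H2-Aa, H2-Ab1 and H2-Eb1 among the class II UMIs of 7 cell classes in Olaparib + LLY-283 (O+L) and Combo (C), with the number of UMIs above each bar. H2-Ab1 makes up 94.5% and 78.4% in CAF-like cells and between 15.3% and 48.8% in the other 6 classes shown. Endothelial-like cells are not shown.

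Within the CAF-like cells, the cluster led by Crabp1, Tnc and Postn, with 61 and 19 cells, had the higher class II level, 109 and 88.0 CPM, with 38 of 38 and 28 of 31 UMIs from H2-Ab1. The cluster led by Dpt and Clec3b was at 21.5 and 18.9 CPM, with H2-Ab1 in 14 of 17 and 12 of 20 UMIs. Cd74 held 15 and 45 UMIs in CAF-like cells, 13.2 and 31.9 CPM (2.42, 1.32 to 4.67), and H2-DMa 10 and 4 UMIs. There were 0.273 and 0.882 Cd74 UMIs per class II UMI, the lower value being the lowest over the 7 classes. Of the 2 members counted, Cd74 was at least 1.5-fold higher and H2-Ab1 at least 1.5-fold lower in Combo, against 6.91% and 4.58% of 6119 genes. Ciita had 0 UMIs in both. C1q came to 38.7 and 39.0 CPM in these cells, and the 13 macrophage markers summed to 210 and 249 CPM, compared with 92.5 and 110 CPM in tumor-like cells. The part of macrophage RNA in the CAF-like values was not tested.

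Tumor-like cells, 10816 and 2642, were low in every member and higher in Combo in each. H2-Aa was at 3.77 and 7.35 CPM (1.95, 1.74 to 2.19), H2-Ab1 at 3.13 and 5.59 (1.79, 1.57 to 2.03) and H2-Eb1 at 3.83 and 7.53 (1.97, 1.76 to 2.21). H2-DMa was at 9.72 and 16.6 CPM (1.70, 1.58 to 1.84), H2-DMb1 at 0.999 and 2.12 (2.12, 1.69 to 2.66) and Cd74 at 32.1 and 60.3 (1.88, 1.80 to 1.95). Ciita had 9 and 20 UMIs, a ratio of 1.85 with an interval that includes 1 (0.806 to 4.62). All 6 members counted were at least 1.5-fold higher in Combo and 0 lower, against 5.66% and 3.19% of 15066 genes. A gene that marks macrophages, Lyz2, was also higher in Combo in these cells, at 53.3 and 92.2 CPM (ratio 1.73), and the C1q sum was at 25.2 and 33.4 CPM (1.33). The part of carried-over RNA in the difference was not tested. With cells holding a C1q UMI left out, the class II ratio was 1.35. This kept 8543 of the 10816 cells of Olaparib + LLY-283 and 614 of the 2642 of Combo, the library with more UMIs per cell. The cells kept are thus a different part of each library.

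The difference in tumor-like cells was found across its clusters. The class II level was higher in Combo in 11 of 11 clusters, with ratios from 1.11 to 2.93, and the interval lay above 1 in 7 of them. Lyz2 was higher in 11 of 11, with ratios from 1.40 to 2.49. The highest class II level was in the cluster led by Ifit3, Ifit1 and Cxcl10, interferon-induced genes, at 25.8 CPM in Olaparib + LLY-283 and 55.2 CPM in Combo.

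Tumor-like cells were then split in each library into 4 equal groups by the summed share of 10 interferon-induced genes, Gbp2, Gbp3, Gbp4, Gbp5, Gbp7, Iigp1, Irgm1, Irgm2, Igtp and Irf1, none of them a member. From group 1 (lowest) to group 4 (highest) the class II level was 7.36, 9.34, 9.95 and 16.4 CPM in Olaparib + LLY-283 and 12.8, 12.9, 17.4 and 39.1 CPM in Combo, a ratio of highest over lowest of 2.23 (1.86 to 2.67) and 3.06 (2.73 to 3.44). The ratio was 2.36 and 3.80 for H2-DMa, 3.91 and 5.48 for H2-DMb1 and 3.05 and 5.95 for Cd74. C1q (0.924 and 1.02) and Lyz2 (0.994 and 1.01) did not follow the interferon genes. Median UMIs were 7310, 9358, 9156 and 7980 over the 4 groups in Olaparib + LLY-283 and 44155, 49158, 51114 and 47660 in Combo.

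**Figure D5:**
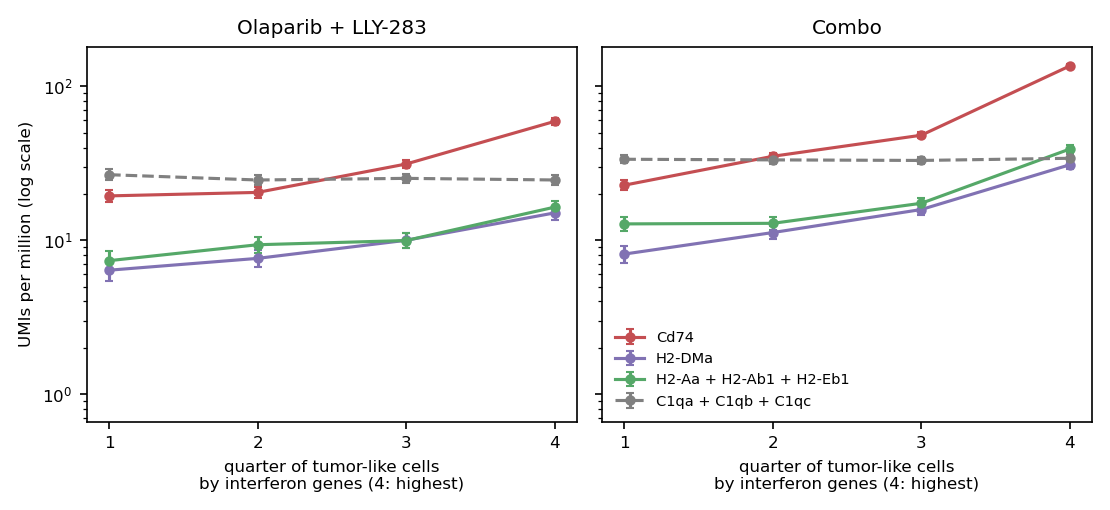
Levels (CPM, log scale) of Cd74, H2-DMa, the class II sum and the C1q sum in tumor-like cells of each library, split into 4 equal groups by interferon genes (4: highest), with 95% Poisson intervals. Cd74, H2-DMa and class II are higher in the highest group, and C1q, the dashed line, stays between 24.6 and 34.1.

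Cells with 5 or more class II UMIs numbered 1, 2, 3 and 16 over the 4 groups in Olaparib + LLY-283 and 1, 3, 15 and 40 in Combo. Together the 59 such cells of Combo held 38.6% of the class II UMIs, and the 22 of Olaparib + LLY-283 held 14.7%. The cut of 5 is a raw count, and median UMIs were 48069 in Combo and 8580 in Olaparib + LLY-283. These numbers and shares are thus not compared between libraries. In the cells with under 5, which were chosen by their class II UMIs, H2-DMa went from 8.10 to 25.1 CPM in Combo and from 6.39 to 14.3 CPM in Olaparib + LLY-283, and Cd74 from 22.7 to 62.0 CPM and from 19.1 to 50.1 CPM. Class II in them, held down by that choice, was 12.6, 12.1, 12.8 and 14.2 CPM in Combo and 7.12, 8.70, 9.27 and 11.6 CPM in Olaparib + LLY-283. In the 614 Combo cells without a C1q UMI, class II was at 16.3 CPM in the lowest and 18.0 CPM in the highest group (ratio 1.11), H2-DMa at 10.9 and 33.9 CPM and Cd74 at 18.1 and 80.7 CPM. In the 8543 such cells of Olaparib + LLY-283, class II was at 7.01 and 17.4 CPM.

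The tumor-like cells with 5 or more class II UMIs were compared with the rest. In Combo, Krt8 was at 829 CPM in them and 796 CPM in the others, C1qa at 13.9 and 14.6 CPM and Lyz2 at 92.8 and 92.2 CPM. H2-DMa was at 87.2 against 14.6 CPM, H2-DMb1 at 35.8 against 1.20 CPM and Cd74 at 860 against 38.6 CPM. Ciita had 5 of its 20 UMIs in these 59 cells. In Olaparib + LLY-283, Krt8 was at 741 against 804 CPM, C1qa at 11.0 against 10.6 CPM, and Lyz2 at 148 against 53.0 CPM. A C1q UMI was found in 91.5% of them in Combo, compared with 76.4% of the others, and in 31.8% compared with 20.99% in Olaparib + LLY-283. The cells with 5 or more were also deeper, with median UMIs of 52910 compared with 47879 in Combo and 12774 compared with 8574 in Olaparib + LLY-283. The part of depth in these shares was not tested. Their median doublet score was 0.0691 compared with 0.0525 in Combo and 0.223 compared with 0.157 in Olaparib + LLY-283. The part of doublets in these cells was not tested.

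Endothelial-like cells held too few UMIs for any member to reach 50. H2-Aa had 0 and 5 UMIs, H2-Ab1 2 and 5, and Cd74 2 and 24, or 9.57 and 180 CPM. Of the 11 class II UMIs in Combo, 1 cell held 7. Lyz2 was at 33.5 and 233 CPM in these cells.

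H2-DMa was set against the classical chains. Per class II UMI tumor-like cells had 0.906 and 0.809 H2-DMa UMIs, macrophage-like cells 0.243 and 0.465, monocyte-like cells 0.109 and 0.275, and DC-like cells 0.0493 and 0.0398. CAF-like cells had 0.182 and 0.0784, osteoclast-like cells 0.237 and 0.463 and neutrophil-like cells 0.0233 and 0.0968, on few UMIs, so the order of the classes differed between the libraries below tumor-like cells. H2-DMb1, its partner, was at 0.0931 and 0.103 per class II UMI in tumor-like cells and 0.0359 and 0.0266 in DC-like cells. Ciita was at 152 and 182 CPM in DC-like cells, on 14 and 84 UMIs, and at or under 16.3 CPM in all 7 classes.

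Other genes of the pathway came from a list of 29, of which 27 are in the files. In macrophage-like cells 23 had at least 50 UMIs, and 0 were at least 1.5-fold higher and 2 lower in Combo (all genes: 6.68% and 4.86%). The lower ones were H2-Ea-ps, the I-E alpha gene that many strains have lost, at 250 and 145 CPM (0.578, 0.521 to 0.643), and Rfxank, a subunit of RFX, at 12.4 and 6.59 CPM (0.533, 0.325 to 0.890). The other promoter factors differed less, as with Rfxap (46.3 and 45.1 CPM) and Creb1 (32.6 and 35.9 CPM). Ctss, the cathepsin that trims the invariant chain, was at 2003 and 2112 CPM, and Ifi30, an endosomal thiol reductase, at 497 and 568 CPM. Of the interferon-gamma receptor and its signaling genes, Ifngr1 was at 90.0 and 106 CPM, and 0 of 6 were past the fold.

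In tumor-like cells 24 of the 27 were counted, and 4 were at least 1.5-fold higher and 0 lower in Combo (all genes: 5.66% and 3.19%). These included H2-Ea-ps (2.87 and 5.45 CPM) and Irf1, an interferon-induced transcription factor (38.3 and 72.0 CPM, ratio 1.88, 1.81 to 1.95). The others were March1, a ubiquitin ligase that takes class II from the surface (17 and 33 UMIs), and Cd83 (40 and 102 UMIs), which opposes March1. The interval of the March1 ratio includes 1 (1.62, 0.875 to 3.10), while that of Cd83 does not (1.46 to 3.14). The 7 promoter factors had a median ratio of 1.02 and 0 were past the fold. Rfx5, the DNA-binding subunit of RFX, was at 4.89 and 6.43 CPM (1.32, 1.18 to 1.47), and Ctss at 9.17 and 13.6 CPM (1.48, 1.37 to 1.60). The sum of the 10 interferon-induced genes, Irf1 among them, was at 386 and 636 CPM in these cells.

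In monocyte-like cells 18 of the 27 were counted, 5 higher and 1 lower (all genes: 13.7% and 8.19%), the lower one being H2-Ea-ps (844 and 405 CPM). Those higher included Lgmn, an endosomal protease (430 and 917 CPM; 2.13, 1.70 to 2.71) and Sppl2a, which cleaves the last fragment of the invariant chain (65.3 and 158 CPM; 2.43, 1.36 to 4.77). The counts higher and lower were 5 and 1 of 18 in neutrophil-like cells, where 21.9% and 18.6% of all genes were called. They were 1 and 2 of 8 in osteoclast-like cells (11.5% and 11.3%) and 2 and 1 of 15 in CAF-like cells (6.91% and 4.58%). In endothelial-like cells they were 1 and 0 of 5. No share of all genes was taken for that class, so nothing is read from its counts.

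Likeness to the class II level was measured over 20 points, 10 cell classes in each library, as Pearson's r of log2(CPM + 1) among 11355 genes with at least 500 UMIs. The points share libraries and depth, so r is a description only. Among the members r was 0.931 for Cd74, 0.897 for H2-DMa, 0.865 for H2-DMb1 and 0.775 for Ciita. The leading genes outside the set were H2-Ea-ps (0.921), Rgs1 (0.915), Bcl2a1d (0.914), Bcl2a1b (0.907), Malt1 (0.902), Cd86 (0.902), Napsa (0.891), Cd83 (0.886), Ms4a4c (0.865) and Ctss (0.865). Bcl2a1d and Bcl2a1b are near-identical copies, so reads may be split between them. Cd86 and Cd83 are on the dendritic cell marker list and Ms4a4c is on the monocyte list. These lists were used to name the classes, so the r of these genes is not independent of the naming.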

How the data were processed

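The authors deposited, for each library, a matrix of UMI counts per gene and cell with no normalization. The methods of the study name Cell Ranger v7.0.0 and mm10, while the matrix header names Cell Ranger 6.1.2, and the submitters' processing notes list bcl2fastq 5.0.1 and Seurat 4.1.0. The deposited counts were used as they are. Reads from BALB/c mice were aligned to a C57BL/6 genome, and the effect on the polymorphic class II genes was not tested.

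The filters were a minimum of 200 genes per cell and a mitochondrial share of UMIs under 20%. The automatic threshold of Scrublet called 0 doublets in both libraries, so the cells with the highest scores, at an expected 0.8% per 1000 cells, were removed (2069 and 296). With scanpy 1.11.5, 2000 variable genes without MHC and interferon genes, 30 principal components, 20 neighbors and Leiden resolution 1.3 were used. No cell annotation was used from the study: clusters were named from marker lists, with at least 3 markers over 2-fold, by rules set after the data were seen, so differences in names from the study are possible. Tumor-like clusters were the exception. They were clusters that fit no other class and had a summed Krt8 and Krt18 level over 2-fold the median of the immune clusters. Cells of unnamed clusters belong to no class.

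UMIs were summed over each class, with exact Poisson intervals for levels, conditional binomial intervals for ratios and Clopper-Pearson intervals for shares, all covering counting error only. A member or pathway gene was counted with at least 50 UMIs over both libraries and called at 1.5-fold, with 0.5 UMIs added. Named genes are the 7 members, the pathway list, markers and the 10 genes most like the class II sum; cells with 5 or more class II UMIs, the Ccr2 cluster and H2-Ab1 in CAF-like cells were singled out after their values were seen. With 1 library per group no test was run. The members and lists were chosen with earlier results of these data known. Ratios were checked on 200 genes of simulated data. Alternatives changed the filters, doublets, clustering, classes, genes summed and thinning. A gene of the pathway list is not reported here by name.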

Additional observations from a re-analysis of the deposited data

Results flagged for a closer look

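The class II level differed between the libraries in opposite directions: the ratio of Combo over Olaparib + LLY-283 was 0.551 in macrophage-like cells and 1.91 in tumor-like cells. Without the cluster led by Ccr2 the macrophage-like ratio was 1.06, and the directions were then no longer opposite. No interval was taken for this ratio, which is close to 1, so no direction is read from it. Within macrophage-like cells the clusters also went apart, with ratios of 0.667 in the cluster led by Mmp12, 2.22 in that led by Gatm, 0.200 in that led by Ccr2 and 0.391 in that led by Lyve1. These differences between classes and clusters were not tested, since each group is 1 library. In the 5 macrophage-like clusters the ratios were from 0.865 to 1.22 for Lyz2 and from 0.329 to 1.37 for C1qa.

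Class II UMIs were also found in cells that entered no comparison. Cells removed as doublets, 2069 and 296, were at 50.2 and 122 CPM, with C1q at 179 and 409 CPM. Unnamed cells with neutrophil genes in Combo, 482 in number, were at 168 CPM, with 0.255 Cd74 UMIs per class II UMI, and no cell held more than 11 of their 145 class II UMIs. Unnamed cells with keratins and few UMIs were at 38.7 and 35.9 CPM, above the tumor-like cells of the same libraries. In myogenic-like cells the level was 0 UMIs in Olaparib + LLY-283 and 23.7 CPM in Combo, where the interval, 2.87 to 85.6 CPM, includes that of the unnamed keratin cells.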

How the results depend on the processing

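No paired analysis was possible because each group is 1 library, with no replicate numbers. The class II ratio kept its direction in tumor-like cells under 14 of 14 alternatives (1.35 to 1.99). In monocyte-like cells it did so under 12 of 12 (0.399 to 0.810), and under a further alternative no cells were named monocyte-like. The ratio also kept its direction in macrophage-like, neutrophil-like, osteoclast-like and endothelial-like cells under 13 of 14 each, and in CAF-like cells under 10 of 14 (0.697 to 1.45). It crossed 1 in macrophage-like cells (1.06) without the Ccr2 cluster. When each cell was classed by its own markers it crossed 1 in neutrophil-like (1.13) and osteoclast-like cells (2.69, range 0.0935 to 2.69). It also did so in endothelial-like cells, where 0 UMIs remained in Combo without cells that hold a C1q UMI. Where no cause is given below, the cause was not tested. Few UMIs of Ciita, and few endothelial-like and osteoclast-like cells, limit their values.

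For macrophage-like cells in Olaparib + LLY-283, Combo and as a ratio, the values were 767, 606 and 0.791 with no mitochondrial limit, 933, 628 and 0.673 with doublets kept, 272, 196 and 0.720 with MHC and interferon genes kept in the clustering, 611, 447 and 0.732 with each cell classed on its own, 2122, 1336 and 0.630 with Cd74 added, and 986, 598 and 0.607 as a mean over cells. Under a limit of 10% they were 795 CPM and 0.586. At resolution 0.8 the levels were 914 and 530, with 50 components Combo was at 521 CPM (0.615), without cells holding a dendritic cell marker UMI 433 CPM (0.509), without the highest cell 445 CPM, and without the Ccr2 cluster Olaparib + LLY-283 was at 447 CPM.

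The monocyte-like ratio was 0.520 with no mitochondrial limit, 0.543 at resolution 0.8, 0.645 with 50 components, 0.810 with MHC genes kept, 0.561 with each cell classed on its own and 0.477 with Cd74 added. With MHC genes kept the class took in 42 and 37 of the 47 DC-like cells. Monocyte-like levels moved more than the ratio. Without the Cd74 alternative they ran from 2343 to 8726 CPM in Olaparib + LLY-283 and from 940 to 7067 CPM in Combo. Of 11 alternatives, 7 and 3 stayed within the main interval. The neutrophil-like ratio was 0.491 with no mitochondrial limit, 0.501 with doublets kept, 0.695 at resolution 2 and also 0.695 with 50 components, 0.927 with MHC genes kept, 0.548 as a mean over cells, 0.577 without the highest cell and 0.0832 with cells under 1000 UMIs left out, where few Olaparib + LLY-283 cells remain.

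Tumor-like levels were 42.9 and 80.8 CPM with Cd74 added, and in Combo 14.5 CPM without cells holding a C1q UMI (ratio 1.35) and 21.5 CPM as a mean over cells. The ratio of the highest over the lowest interferon group was 2.82 and 4.91 with Cd74 added, and in Combo 1.11 without cells holding a C1q UMI and 1.99 as a mean over cells. The background for tumor-like cells was 3.64 and 2.44 CPM by macrophage C1q, 8.15 and 10.8 CPM by C1q of all cells, and 346 CPM in Combo by T or NK-like cells without B cell markers.

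Thinned shares move with depth by construction. In macrophage-like cells they were 14.8% and 11.0% at 500 UMIs, 22.6% in Combo at 2000, and 27.2% and 46.7% unthinned. In tumor-like cells they were 0.546% and 1.01% at 500 UMIs, 2.00% and 3.48% at 2000, and 8.20% and 45.8% unthinned. At 2-fold, 2 pairs of class and member were higher and 6 lower in Combo. The share of all genes past 2-fold was not taken, so no result is read from these counts. The H2-Ab1 share in CAF-like cells was 80.8% in Olaparib + LLY-283 with doublets kept, and 75.4% and 56.6% with each cell classed on its own. Of the 10 genes most like class II, 6 stayed by Spearman's rho and 5 with at least 2000 UMIs. The alternatives that left out cells with dendritic cell markers, the highest cell, the Ccr2 cluster or cells with B cell markers, the C1q of all cells, and all those for the interferon groups and the H2-Ab1 share were chosen after seeing the data.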

Other observations

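Macrophage-like cells with under 5 class II UMIs held more H2-Ab1 than the other chains: 78.7 CPM in Olaparib + LLY-283 and 34.1 CPM in Combo, compared with 51.4 and 12.5 CPM of H2-Aa and 18.6 and 9.56 CPM of H2-Eb1. In the cells with 5 or more, H2-Ab1 was at 2315 and 1133 CPM, H2-Aa at 3003 and 1078 CPM and H2-Eb1 at 2073 and 859 CPM. Monocyte-like cells with under 5 had 6 and 30 UMIs of H2-Ab1, 11 and 12 of H2-Aa and 1 and 8 of H2-Eb1. In the neutrophil-like cells of Combo the order was different, with 19 UMIs of H2-Ab1 beside 57 of H2-Aa and 48 of H2-Eb1.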
